A study of Mus musculus with 12 samples.

Results

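Polyamines are small, positively charged molecules made from ornithine and from S-adenosylmethionine, and 10 mouse genes of their synthesis, control, breakdown and sulfur recycling are described here in livers of obese, leptin-deficient ob/ob mice with and without ethionine. The 10 genes were listed by name and by role, and no threshold on measured values chose them. They are the synthesis enzymes Odc1, Amd1, Srm and Sms, the regulators of ornithine decarboxylase Oaz1 and Azin1, the breakdown enzymes Sat1, Smox and Paox, and the salvage enzyme Mtap. All 10 were found among the 56205 genes of the count table, and 10 of 10 passed the filter on low counts that left 13416 genes to test. In the GRCm38 assembly they lie at chr12:17544794-17551505 (Odc1), chr10:40287458-40302186 (Amd1), chr4:148591503-148594993 (Srm), chrX:157443855-157492287 (Sms), chrX:155213132-155216449 (Sat1), chr15:38487427-38519266 (Azin1), chr10:80826656-80829290 (Oaz1), chr2:131491496-131525922 (Smox), chr7:140115799-140137224 (Paox) and chr4:89137122-89181081 (Mtap).

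Whole liver RNA was profiled by poly(A) RNA-seq, with 6 libraries labelled fibrotic and 6 labelled FLO. Both groups carried the ob/ob genotype (strain B6.Cg-Lepob/J) and ate standard chow, and the study names only male mice, aged 8 to 10 weeks when ethionine began. The fibrotic group also received DL-ethionine, the ethyl analogue of methionine, given by the series text as 0.165% in drinking water for 2 weeks, whereas another label reads 0.15% by injection and the animal methods read 0.15% in water for 1 week. The dose, route and time therefore cannot be settled from these sources, and lean mice or another agent were not part of this comparison.

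Ornithine decarboxylase (Odc1) makes putrescine, and aminopropyl groups cut from decarboxylated S-adenosylmethionine turn putrescine into spermidine and then spermine. Each such transfer releases methylthioadenosine, which Mtap cleaves at the first step of the pathway that rebuilds methionine. Cells hold polyamines within narrow bounds through antizyme, which binds ornithine decarboxylase and sends it to the proteasome, and through acetylation and oxidation. The liver is the main site of S-adenosylmethionine synthesis, and ethionine is a substrate of the same methionine adenosyltransferases.

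Total counts per library ran from 17815568 to 20352675 in the fibrotic group and from 18275320 to 24814263 in the FLO group. The hepatocyte gene Alb reached at least 40385 CPM in every library, where CPM are counts scaled to the TMM-normalised size of each library. The collagen gene Col1a1 had medians of 19.4 CPM in the fibrotic and 25.2 CPM in the FLO group, with a log2 fold change of -0.22 (adjusted p = 0.611, edgeR), and was not called in the group that carries the label fibrotic. FLO replicate 3 held 3773 counts of Xist and 4 of the Y-linked gene Ddx3y, whereas the other 11 libraries held at most 4 and at least 556, so this library goes against the statement that only males were used. The values of the 10 genes and the calls of the lists around them were therefore also computed without it. The samples were bulk tissue, in which fewer cells of a type and less RNA per cell cannot be told apart.

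Of the 10 genes, 3 rose (Odc1, Amd1 and Mtap) and 2 fell (Azin1 and Oaz1) in the fibrotic group, where a call required an adjusted p of at most 0.01 and a log2 fold change beyond 0.5 in either direction in edgeR's quasi-likelihood test. The background was high, since 29.9% of all tested genes were called, 15.9% as higher and 14.0% as lower. The 5 called genes were also the 5 whose groups did not overlap, against 30.4% of all tested genes. The median log2 fold change of the 10 genes was 0.31, beside 0.03 over all tested genes. With a background this high, the number of called genes is a description of the 10 genes and no more. Without FLO replicate 3, the same 3 and 2 genes were called.

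**Figure D1:**
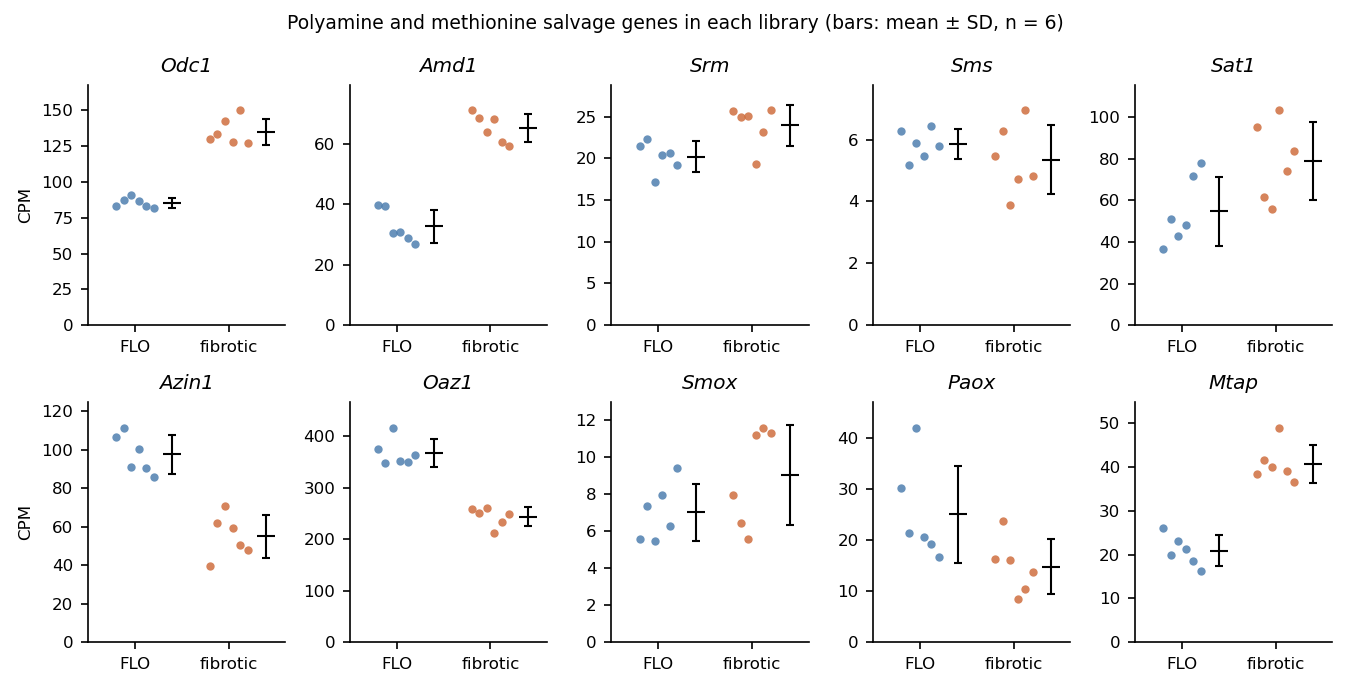
Level of each of the 10 genes in each library, in CPM on axes that start at 0. Points are libraries in replicate order, and bars give mean ± SD (n = 6): the groups are apart for Odc1, Amd1 and Mtap (fibrotic above) and for Azin1 and Oaz1 (fibrotic below), and overlap for the other 5.

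The entry step rose. Odc1, which decarboxylates ornithine to putrescine, ran from 127.5 to 150 CPM in the fibrotic group with a median of 131.5 CPM, and from 81.9 to 91.0 CPM in the FLO group with a median of 84.96 CPM. Every fibrotic library lay above every FLO library, and the spread within a group was the smallest of the 10 genes in both groups (CV 6.78% and 4.05%). The mean was 135.1 ± 9.17 CPM against 85.6 ± 3.46 CPM (SD, n = 6), a 1.58-fold difference (log2 fold change 0.66, SE 0.07, 95% interval 0.51 to 0.80, adjusted p = 1.642e-06).

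Amd1, which encodes S-adenosylmethionine decarboxylase, the supplier of aminopropyl groups, also rose. Its level was 59.3 to 71.2 CPM (median 66.2 CPM) in the fibrotic group and 26.8 to 39.9 CPM (median 30.7 CPM) in the FLO group. The groups lay far apart, although FLO replicates 1 and 2 stood above the other 4 FLO libraries. Amd1 was 2.00-fold higher in the fibrotic group (log2 fold change 0.997, SE 0.10, 95% interval 0.78 to 1.22, adjusted p = 1.588e-06). Odc1 and Amd1, both short-lived enzymes that limit the rate of the pathway, were thus the synthesis genes that rose.

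The aminopropyltransferases behind them, Srm and Sms, were called by none of edgeR, DESeq2 and limma-voom, and 1 of them had an unadjusted p under 0.05 in edgeR. Srm, spermidine synthase, ran from 19.4 to 25.8 CPM in the fibrotic group (median 25.0 CPM) and from 17.1 to 22.3 CPM in the FLO group (median 20.5 CPM). In 5 of 6 fibrotic libraries it lay above every FLO library, and fibrotic replicate 4 lay inside the FLO range. The log2 fold change was 0.25 (95% interval 0.06 to 0.44, adjusted p = 0.0299), and 0.20 without FLO replicate 3 (adjusted p = 0.0723). Sms, spermine synthase, ran from 3.88 to 6.95 CPM and from 5.17 to 6.46 CPM, with fibrotic libraries both above and below the FLO range. Its log2 fold change was -0.13 (95% interval -0.43 to 0.17, adjusted p = 0.473), an interval that spans changes in either direction.

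The stretches just upstream of Odc1 and Amd1 are shown because these were the 2 synthesis genes called higher. They were thus chosen by their values, and a shared control was not tested. Promoter windows were taken from RefSeq (GRCm38.p6), which matched 8 of the 10 genes by symbol, all but Azin1 and Srm, and only bases outside the annotated gene are printed, 5′ to 3′ on the gene's strand. Capitals mark the GC box GGGCGG on either strand, a sequence bound by Sp1. The Odc1 stretch covers chr12:17544623-17544793 on the plus strand and ends 80 bases before the RefSeq start, and the Amd1 stretch covers chr10:40302189-40302438 on the minus strand.
Odc1: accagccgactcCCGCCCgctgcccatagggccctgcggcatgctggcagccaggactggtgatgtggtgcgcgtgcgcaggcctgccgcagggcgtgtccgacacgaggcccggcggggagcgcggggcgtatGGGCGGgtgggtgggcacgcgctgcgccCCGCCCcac
Amd1: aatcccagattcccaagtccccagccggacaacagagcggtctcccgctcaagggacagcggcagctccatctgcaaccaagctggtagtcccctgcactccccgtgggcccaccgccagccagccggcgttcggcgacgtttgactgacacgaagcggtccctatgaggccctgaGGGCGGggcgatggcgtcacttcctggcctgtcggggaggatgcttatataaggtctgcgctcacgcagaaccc

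Within the 250 bases before the RefSeq start, Odc1 held 4 GC boxes, whose first bases lay 238, 116, 88 and 15 bases before the start, and the last of them falls outside the printed stretch. Amd1 held 1, at 74 bases, and the window of Mtap, which was also called higher, held 0. A GC box was present in 32.7% of 32851 mouse windows of this length, so it is a common feature. Sms and Paox had 2 windows each, and a gene was counted if any of its windows held a match, whereas the percentages are of single windows. Over the 8 genes with a window, 6 held a GC box, 3 held a CCAAT box (CCAAT, in 33.8% of all windows) and 1 held the E-box CACGTG that Myc and Max bind (in 6.02%). That E-box stood 196 bases before a start of Sms, a gene that was not called. Bases after the start, within the genes, were not searched for any of these letters. The cAMP response element TGACGTCA (in 1.55% of windows), the amino acid response element TGATGNAA (in 3.45%) and the TATA box TATAAA (in 12.4%) were found in none of the 8. All letters were searched on both strands and only as exact matches. The TATATAAG near the end of the printed Amd1 stretch differs from TATAAA and was therefore not counted. A match or its absence says nothing about binding.

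Both regulators of ornithine decarboxylase fell. Oaz1, which encodes antizyme, the protein that takes ornithine decarboxylase to the proteasome, ran from 212.7 to 261.4 CPM in the fibrotic group (median 249.7 CPM) and from 347.3 to 417 CPM in the FLO group (median 357.6 CPM). Every fibrotic library lay well below every FLO library. The ratio of the groups was 0.66 (log2 fold change -0.59, SE 0.08, 95% interval -0.76 to -0.42, adjusted p = 2.27e-05). The interval crosses the fold limit of the call, and leaving out single libraries kept the log2 fold change between -0.61 and -0.55.

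The level of Oaz1 RNA is only part of its control, because antizyme is made by a +1 ribosomal frameshift that polyamines promote. The site is printed here since it is what gives antizyme its place in the pathway. It is exonic and coding, on the plus strand at chr10:80828280-80828309 (GRCm38), the stop codon of the first reading frame is in capitals, and the annotation of the full protein skips 1 base at it. There are 68 codons before that stop.
Oaz1 frameshift site: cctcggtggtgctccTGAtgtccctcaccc
Counts of RNA do not show how often ribosomes shift at this site. The promoter window of Oaz1 (chr10:80826406-80826655, plus strand, RefSeq, GRCm38.p6) held no GC box, and its CCAAT box, in capitals, began 140 bases before the start.
Oaz1 promoter: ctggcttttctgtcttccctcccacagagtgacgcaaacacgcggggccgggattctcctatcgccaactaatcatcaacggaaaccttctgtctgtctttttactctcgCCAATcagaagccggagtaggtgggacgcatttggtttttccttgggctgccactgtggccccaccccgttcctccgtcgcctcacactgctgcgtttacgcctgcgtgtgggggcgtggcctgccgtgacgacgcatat

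Azin1, the antizyme inhibitor, resembles ornithine decarboxylase without its activity and frees the enzyme by binding antizyme itself. Its level was 39.5 to 70.9 CPM in the fibrotic group (median 55.0 CPM) and 86.1 to 111.5 CPM in the FLO group (median 95.5 CPM). The groups did not overlap, and the fibrotic libraries were the more scattered (CV 20.4% against 10.3%). The ratio of the groups was 0.57 (log2 fold change -0.82, SE 0.12, 95% interval -1.09 to -0.56, adjusted p = 5.358e-05). Exons of Azin1 overlap those of the antisense gene Gm49077 over 358 bases, 5.72% of its exonic length, and reads there could be assigned to either gene if counting ignored strand.

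**Figure D2:**
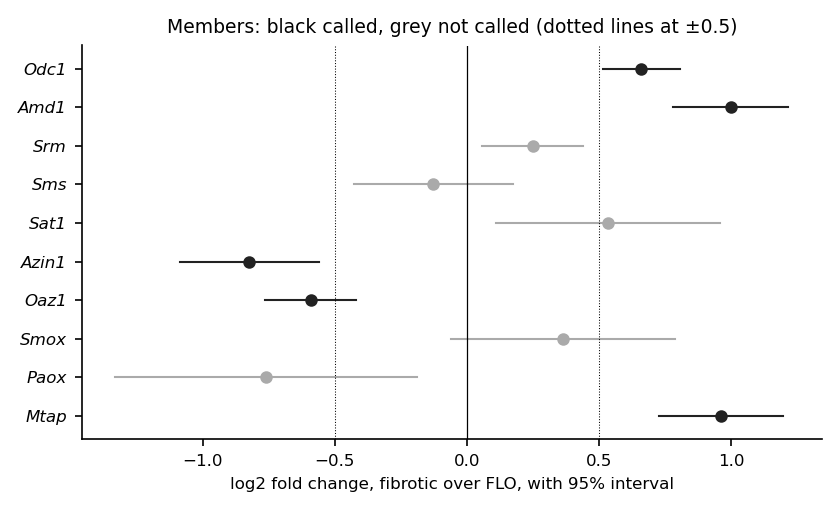
Log2 fold change of the 10 genes, fibrotic over FLO, from edgeR, with 95% intervals. Black marks the 5 called genes and grey the others, and dotted lines mark the fold limit of 0.5 in either direction: Amd1 lies highest at 0.997 and Azin1 lowest at -0.82.

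Ratios of counts within a library, which no scaling between libraries can move, were compared for 9 pairs of the 10 genes, as a description and without a test. In 4 pairs the groups did not overlap. Odc1 to Oaz1, the enzyme against its antizyme, had a ratio of 0.50 to 0.64 in the fibrotic group (median 0.54) and of 0.22 to 0.25 in the FLO group (median 0.23). The ratio was 2.38-fold higher (log2 difference 1.249, and 1.23 without FLO replicate 3), and each group was narrow. Odc1 to Azin1 went from a median of 0.89 in the FLO group to 2.40 in the fibrotic group, a 2.83-fold difference. Azin1 to Oaz1, inhibitor against antizyme, overlapped between groups, at 0.15 to 0.28 in the fibrotic and 0.22 to 0.32 in the FLO group. Enzyme RNA was therefore higher relative to both regulators, while the balance between the regulators differed by less than the spread (log2 difference -0.25, and -0.14 without fibrotic replicate 1, pooled SD 0.27).

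The other ratios set the synthesis steps against each other. Amd1 to Srm was 2.30 to 3.53 in the fibrotic and 1.40 to 1.86 in the FLO group, and Mtap to Srm was 1.41 to 2.52 and 0.84 to 1.36, both without overlap. The highest Mtap to Srm ratio came from fibrotic replicate 4, the library with the least Srm and the most Mtap of its group. Srm to Sms, Sat1 to Srm, Smox to Paox and Sat1 to Odc1 overlapped between groups. The breakdown to synthesis ratio Sat1 to Odc1 had nearly the same median in both groups, 0.57 in each, with a pooled SD of 0.44 on the log2 scale.

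**Figure D3:**
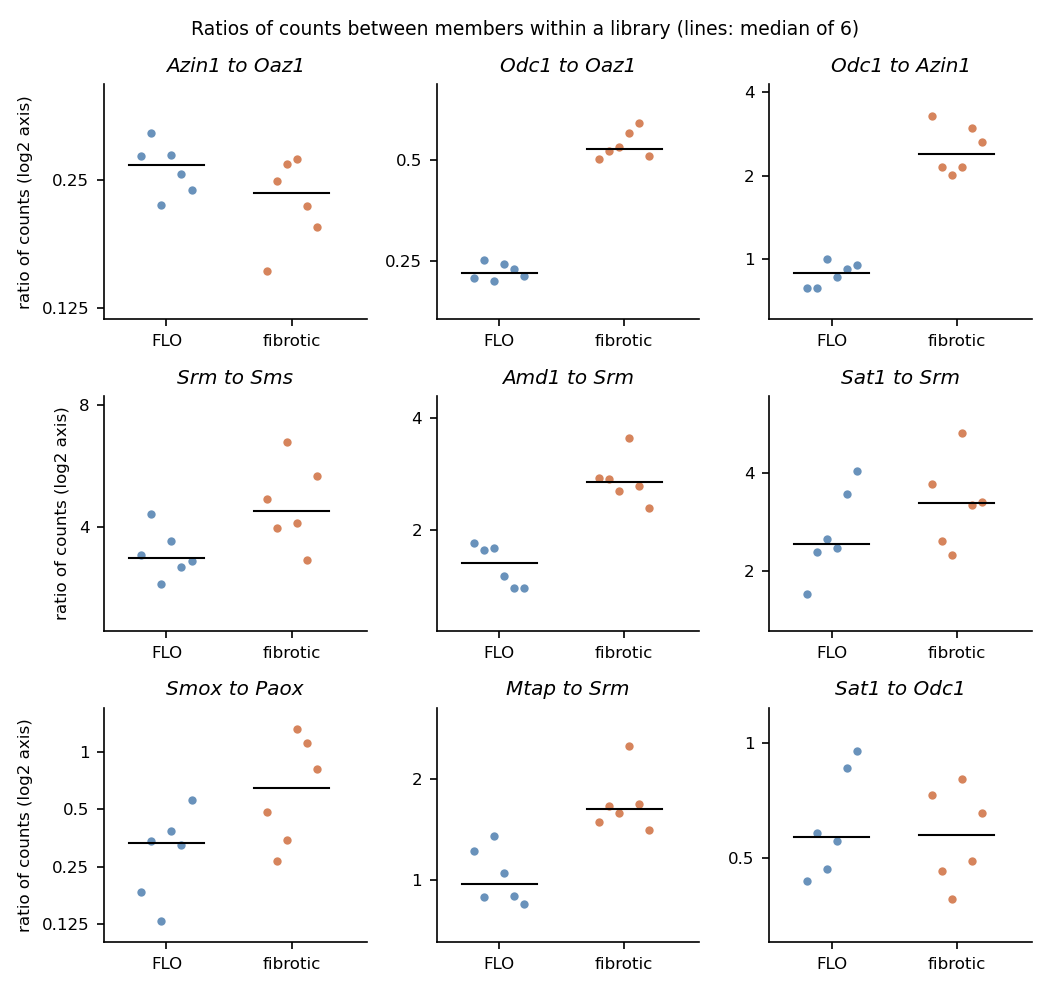
Ratio of the counts of 2 genes within each library for 9 pairs, on log2 axes; points are libraries and lines are group medians (n = 6). Odc1 to Oaz1, Odc1 to Azin1, Amd1 to Srm and Mtap to Srm lie higher in every fibrotic library than in any FLO library, and the other 5 pairs overlap.

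Of the 3 breakdown genes, 0 were called by edgeR or limma-voom and 1 by DESeq2, and 2 had an unadjusted p under 0.05 in edgeR. Sat1, the acetyltransferase that marks spermidine and spermine for oxidation or export, ran from 55.8 to 103.2 CPM in the fibrotic group (median 78.8 CPM) and from 36.4 to 78.1 CPM in the FLO group (median 49.5 CPM). All 6 fibrotic libraries lay above the FLO median, but only 3 lay above the highest FLO library. The log2 fold change of 0.53 passed the fold limit and not the p limit (SE 0.20, 95% interval 0.11 to 0.96, adjusted p = 0.0356), and without FLO replicate 3 it was 0.47 (adjusted p = 0.0731).

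Smox, which oxidises spermine directly, had 5.55 to 11.6 CPM in the fibrotic group (median 9.57 CPM) and 5.48 to 9.40 CPM in the FLO group (median 6.81 CPM). Fibrotic replicates 4, 5 and 6 lay between 11.2 and 11.6 CPM. Fibrotic replicates 1, 2 and 3 lay between 5.55 and 7.95 CPM, inside the FLO range. The log2 fold change of Smox was 0.36 (95% interval -0.06 to 0.79, adjusted p = 0.139). Replicates 4, 5 and 6 also had less Paox (8.47 to 13.87 CPM) than replicates 1, 2 and 3 (16.06 to 23.84 CPM). Their mitochondrial share was lower (4.93 to 5.95% against 6.81 to 7.88%) and their TMM factors were higher (1.083 to 1.201 against 0.965 to 1.055). The cause of this split was not tested.

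Paox, the peroxisomal oxidase of acetylated polyamines, was the most scattered of the 10 genes, with a CV of 36.5% in the fibrotic and 38.0% in the FLO group. It ran from 8.47 to 23.8 CPM (median 14.97 CPM) in the fibrotic group and from 16.7 to 42.1 CPM (median 21.0 CPM) in the FLO group. In 5 of 6 fibrotic libraries it lay below every FLO library, and fibrotic replicate 2 lay above the FLO median. The log2 fold change was -0.76 (SE 0.26, 95% interval -1.33 to -0.19, adjusted p = 0.0275) and stood on the edge of a call. Without fibrotic replicate 2 it was called (-0.95, adjusted p = 0.00679), as it was by DESeq2 (adjusted p = 0.00823), whereas without FLO replicate 3, the library with the most Paox, it was -0.55 (adjusted p = 0.0633). Exons of Paox and of Echs1 on the opposite strand share 142 bases, 2.89% of Paox.

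Mtap rose. It ran from 36.4 to 48.9 CPM in the fibrotic group (median 39.4 CPM) and from 16.2 to 26.1 CPM in the FLO group (median 20.6 CPM). The groups were apart, and the highest fibrotic library, replicate 4, stood clear of the other 5. The difference was 1.95-fold (log2 fold change 0.96, SE 0.11, 95% interval 0.727 to 1.196, adjusted p = 4.28e-06).

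The rest of the methionine salvage pathway moved in both directions. Of 8 genes, 1 was called higher, 2 were called lower and 5 were not called, where 29.9% of all tested genes were called. The median log2 fold change was -0.0042 beside 0.03 over all tested genes. The 3 enzymes that follow Mtap in order, Mri1, Apip and Enoph1, had log2 fold changes of -0.01, 0.0032 and -0.08, each with an SE between 0.13 and 0.16. Adi1, the dioxygenase that makes the keto acid precursor of methionine, fell from 111.9 to 146.5 CPM in the FLO group to 57.1 to 92.5 CPM (log2 fold change -0.81, adjusted p = 3.596e-05). Of the transaminases that can complete the cycle, Got1 rose (0.81, adjusted p = 0.00199) and Kyat1 fell (-0.72, adjusted p = 0.00905). Got2 (0.23, adjusted p = 0.0713) and Tat (0.29, adjusted p = 0.338) were not called. Kyat1 lost its call with no filter on low counts and without any 1 of 7 libraries (FLO replicates 1, 3 and 5 and fibrotic replicates 3, 4, 5 and 6), with an adjusted p of up to 0.0223.

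Other polyamine genes moved in both directions, with 1 called higher and 1 lower of 6 tested (29.9% of all tested genes were called). Their median log2 fold change was 0.62. Aoc1, diamine oxidase, which degrades putrescine and histamine, was detected at 11 to 32 counts in the fibrotic libraries and 0 to 4 counts in the FLO libraries. It rose by 3.56 on the log2 scale (SE 0.50, adjusted p = 2.663e-05), a size that rests on these few counts. Agmat, which hydrolyses agmatine to putrescine, was at 76.0 to 105.6 CPM in the fibrotic and 154.7 to 203 CPM in the FLO group. It fell without overlap (log2 fold change -0.92, adjusted p = 2.797e-06).

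The relatives of the 10 genes were not called. Azin2, the second antizyme inhibitor gene, had medians of 1.16 CPM in the fibrotic and 0.44 CPM in the FLO group (log2 fold change 1.24, adjusted p = 0.0126), so its estimate was opposite in sign to that of Azin1 at a far lower count. Oaz2, a second antizyme gene, was at -0.13 (adjusted p = 0.288), and Sat2 was at 0.35 (adjusted p = 0.0397). Oaz3 had 38 counts in all and was not tested, and Satl1 had 0 counts.

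Of 13 polyamine transport genes, 9 passed the filter on low counts. Among these 9, 2 were called higher and 4 lower, beside 29.9% of all tested genes called. Their median log2 fold change was 0.20. Slc3a2, the heavy chain of amino acid exchangers that has also been tied to polyamine export, was at 142.6 to 185.9 CPM in the fibrotic and 46.8 to 55.5 CPM in the FLO group (log2 fold change 1.71, adjusted p = 1.441e-09). Slc22a3, an organic cation transporter, also rose (0.78, adjusted p = 0.00161). The organic cation carrier Slc47a1 (-0.87, adjusted p = 3.078e-05) fell, as did Atp13a3 (-0.51, adjusted p = 0.0037), a P-type ATPase of polyamine uptake. Atp13a3 stood at the fold limit and was not called by limma-voom or with a replicate block. Nor was it called without FLO replicate 1 or 2 or fibrotic replicate 1, 3, 5 or 6. Leaving out single libraries brought its log2 fold change to -0.40 at its nearest to 0. Its relative Atp13a2 was higher in every fibrotic library than in any FLO library (0.41, adjusted p = 0.000436). It lay inside the fold limit and was not called. Gpc1, a heparan sulfate proteoglycan that has been linked to polyamine uptake, fell most, from 25.6 to 48.6 CPM in the FLO group to 7.04 to 13.4 CPM (log2 fold change -2.0, adjusted p = 8.081e-07).

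Of 10 genes of ornithine and arginine metabolism, 5 were called lower and 1 higher, beside 29.9% of all tested genes called. Their median log2 fold change was -0.51. The list mixes genes that make ornithine with genes that use it, so this median does not measure ornithine supply. Arg1, an arginase, which makes ornithine, was not called (0.19, adjusted p = 0.315). Arg2 was not called either (1.28, adjusted p = 0.0318), at 8 to 22 counts in the fibrotic and 0 to 13 in the FLO libraries. Oat, ornithine aminotransferase, fell (log2 fold change -0.98, adjusted p = 0.000146), as did the urea cycle genes Otc (-1.28, adjusted p = 0.00171), Ass1 (-0.67, adjusted p = 0.00839) and Asl (-0.72, adjusted p = 0.0034) and the cationic amino acid carrier Slc7a2 (-1.03, adjusted p = 0.00422). Cps1, the first enzyme of the urea cycle, rose (0.73, adjusted p = 0.00646). Several of these calls hung on single libraries, and with no filter on low counts Otc, Cps1 and Slc7a2 were not called. Ass1 was not called without FLO replicate 1, 2, 3, 5 or 6 or fibrotic replicate 1, 3, 4, 5 or 6 (adjusted p of up to 0.0227), Cps1 without FLO replicate 2, 4, 5 or 6 or fibrotic replicate 1, 2, 3 or 4 (up to 0.0183), and Slc7a2 without FLO replicate 1 or 2 or fibrotic replicate 1 or 4 (up to 0.0119).

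Of the 3 genes of S-adenosylmethionine supply, 1 was called higher and 1 lower, beside 29.9% of all tested genes called. Their median log2 fold change was -0.17. Mat1a, the enzyme of the adult hepatocyte, fell from 3648 to 4797 CPM in the FLO group to 1189 to 2703 CPM (log2 fold change -1.08, adjusted p = 0.000105). Mat2a, the form of other tissues, rose from 80.9 to 130.7 CPM to 107.9 to 181.9 CPM (0.54, adjusted p = 0.00483), with groups that overlapped. Without FLO replicate 3 it was 0.47 (adjusted p = 0.0122), and it was also not called without FLO replicate 1, 2 or 4 or fibrotic replicate 2, 3 or 5. Amd1, which draws on the same S-adenosylmethionine, rose while the more abundant of these genes fell.

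Downstream of spermidine, which donates the side chain that turns lysine into hypusine in eIF5A, 1 of 4 genes was called (list median 0.30). Both this list and the Myc network below stand beside 29.9% of all tested genes called. Dohh, the hydroxylase that completes hypusine, rose (log2 fold change 0.56, adjusted p = 0.000347), though without FLO replicate 4 it was 0.4987, under the fold limit. Dhps, the enzyme of the step before it, went the other way (-0.42, adjusted p = 0.00217). It was lower in every fibrotic library than in any FLO library, but inside the fold limit and so not called. Of the Myc network, for which Odc1 is a textbook target, 1 of 9 tested genes was called (list median 0.03). This was Mycl, at 32.7 to 51.1 CPM against 16.3 to 21.1 CPM (log2 fold change 1.08, adjusted p = 8.062e-07). Myc itself ran from 6.48 to 27.9 CPM and from 3.39 to 22.9 CPM, with a log2 fold change of 0.51 and an SE of 0.48 (adjusted p = 0.392).

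**Figure D4:**
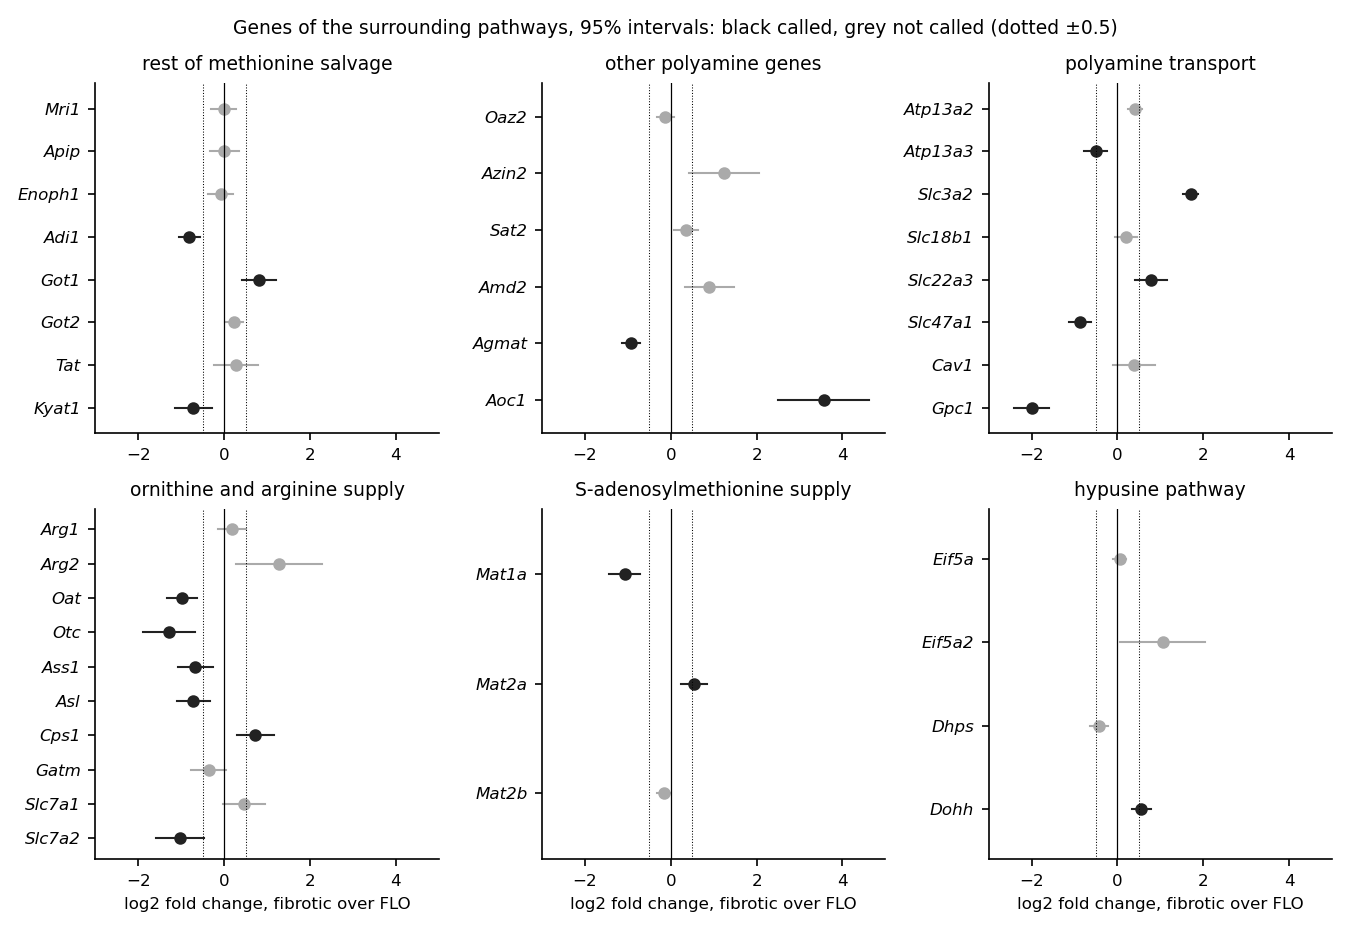
Log2 fold change, fibrotic over FLO, with 95% intervals, of tested genes in 6 lists around the 10 genes, black where called and grey where not. Aoc1 lies farthest to the right at 3.56 and Gpc1 farthest to the left at -2.0, and the lists of salvage, transport and supply hold called genes on both sides of 0.

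To compare levels between genes, counts were divided by the length of each gene's longest annotated transcript and scaled to the same sum in every library, as TPM values are. In the FLO group the order was Oaz1 (261.5 ± 24.4 TPM-like units, SD, n = 6), Sat1 (72.1 ± 19.96), Odc1 (69.6 ± 5.25), Azin1 (36.03 ± 4.67), Srm (27.1 ± 2.72), Amd1 (18.4 ± 3.51), Mtap (13.4 ± 2.497), Paox (9.71 ± 3.88), Smox (5.47 ± 1.23) and Sms (2.82 ± 0.16). The neighbours Sat1 and Odc1, Azin1 and Srm, Amd1 and Mtap, Mtap and Paox, and Paox and Smox had overlapping ranges over libraries, and the other neighbours did not. In the fibrotic group Oaz1 (200.2 ± 7.69) was followed by Odc1 (127.5 ± 15.3), Sat1 (123.6 ± 39.8), Amd1 (42.5 ± 5.38), Srm (37.1 ± 2.04), Mtap (30.5 ± 6.33), Azin1 (23.6 ± 5.003), Smox (8.34 ± 3.19), Paox (6.46 ± 1.82) and Sms (3.01 ± 0.71). There Odc1 and Sat1, Amd1 and Srm, Srm and Mtap, Mtap and Azin1, and Smox and Paox overlapped. Amd1 moved from the 6th to the 4th place and Azin1 from the 4th to the 7th. Antizyme RNA was thus the most abundant of the 10 in both groups and spermine synthase RNA the least. With the longest protein-coding transcript in place of the longest transcript, Oaz1 was at 449.4 and 588.3 in the fibrotic and FLO groups, and Sat1 stood above Odc1 in both groups.

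**Figure D5:**
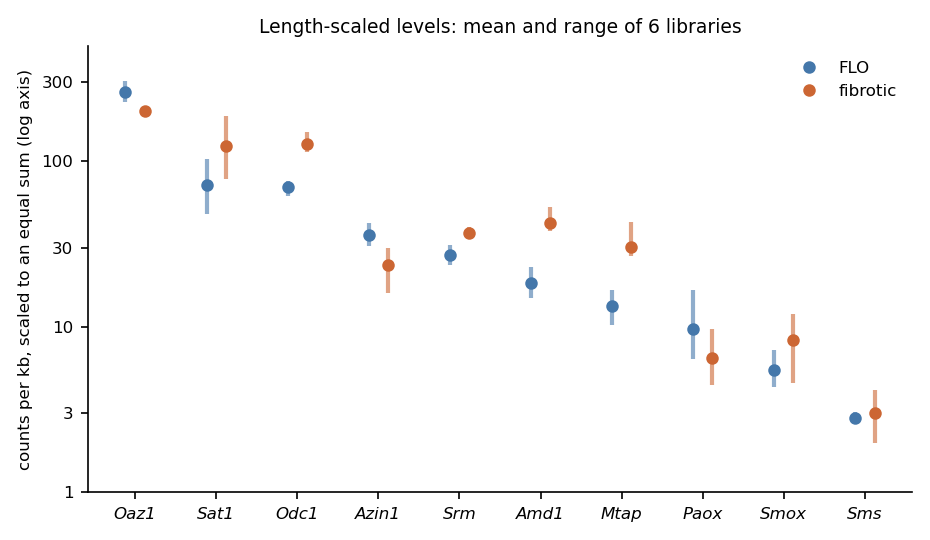
Length-scaled level of the 10 genes (counts per kb of the longest transcript, scaled to the same sum in every library, log axis), with the mean as a point and the range of 6 libraries as a line, ordered by the FLO group. Oaz1 is highest and Sms lowest in both groups, and Amd1 lies above Azin1 in the fibrotic and below it in the FLO group.

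Near-identical copies elsewhere in the genome limit 4 of the 10 values. Oaz1-ps, a processed pseudogene 99.27% identical to Oaz1 over 685 bases, held 29726 counts beside the 72092 of Oaz1 and fell by the same measure (log2 fold change -0.60, adjusted p = 1.79e-05). With the counts of both summed, the log2 fold change was -0.59, as for Oaz1 alone. Sms-ps, identical to Sms over 1101 bases, held 404 counts beside 1320, and Gm19680, 99.926% identical to Paox over 1358 bases, held 1225 beside 4749. Amd2, 99.563% identical to Amd1 over 3202 bases, held 351 counts beside 11622 and had a log2 fold change of 0.90 (adjusted p = 0.0108). Sums with the copies gave -0.12 for Sms, -0.67 for Paox (adjusted p = 0.0363) and 0.99 for Amd1. The copies of Odc1 held 43 counts in all, those of Sat1 held 0, and Srm, Azin1, Smox and Mtap had no copy at 95% identity over 200 bases.

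The 10 genes did not share a single outlying library. Fibrotic replicates 4, 5 and 6 did stand apart from replicates 1, 2 and 3 in Smox and Paox, as given above. In the FLO group replicate 6 was the lowest library for 5 genes (Odc1, Amd1, Azin1, Paox and Mtap) and the highest for Sat1 and Smox. In the fibrotic group replicate 4 was lowest for Srm, Oaz1 and Paox and highest for Sat1 and Mtap, and replicate 5 was highest for Odc1, Sms and Smox. Without FLO replicate 3, which was highest for Odc1, Oaz1 and Paox, the log2 fold changes of the called genes were 0.68 for Odc1, 0.98 for Amd1, 0.99 for Mtap, -0.85 for Azin1 and -0.55 for Oaz1. Those of Sms and Smox were -0.13 and 0.30, both not called.

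Markers of some other liver cells differed between the groups, read against the 29.9% of all tested genes called. Of 8 Kupffer cell and macrophage markers 6 were called higher, with summed levels of 241.6 to 503.7 CPM in the fibrotic and 184.8 to 224.7 CPM in the FLO group. Of 5 tested cholangiocyte markers 3 were called higher (sums 80.7 to 274.7 CPM against 47.2 to 88.0 CPM), and of 6 stellate cell markers 1 was (193.3 to 320.4 CPM against 174.3 to 264.3 CPM). Each of these sums came mostly from 1 gene. Spp1 held 70.3 to 238.2 CPM against 39.8 to 76.1 CPM, and Dcn held 121.6 to 190.6 CPM against 102 to 150.3 CPM. Of 5 endothelial markers 1 was called lower (99.99 to 136.1 CPM against 140.4 to 163.4 CPM). Of 8 hepatocyte markers, of which Cps1 and Tat also stand in the lists above, 2 were called higher and 2 lower, with overlapping sums, and of 6 proliferation genes 1 was called higher and 2 lower, also with overlap (33.7 to 53.0 CPM against 45.6 to 56.6 CPM). The 2 tested lymphocyte markers were at 0.28 (Nkg7, adjusted p = 0.539) and 0.35 (Ptprc, adjusted p = 0.158), with sums of all 6 markers of 7.69 to 12.7 CPM against 6.13 to 10.9 CPM. No marker was at 0 in all libraries. The share of counts from mitochondrial genes was 6.49 ± 1.15% in the fibrotic and 8.62 ± 1.09% in the FLO group (SD, n = 6, exact permutation p = 0.0108), and the TMM factors did not overlap. The part of cell makeup, of mitochondrial share and of composition in the differences of the 10 genes was not tested.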

How the data were processed

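Poly(A) RNA of 12 whole livers was sequenced, and a single table from the authors holds the raw deposited counts of each Ensembl gene, not normalized. The submitters' processing notes name bcl2fastq, STAR 2.7.3a and mm10. The study's methods name a stranded kit, the exon quantification pipeline and PISCES, but describe them for reads aligned to the human genome. The counting tool, annotation and strand setting used for the mouse table are not given in the sources used here. Group and replicate came from the sample titles.

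Symbols, lengths and positions came from GENCODE M21 (GRCm38, the same assembly as mm10), which matched 51745 of 56205 identifiers. The test was the quasi-likelihood one of edgeR 4.0.16 under R 4.3.3, with TMM scaling, filterByExpr, robust dispersions and Benjamini-Hochberg adjustment over all 13416 tested genes. Genes with an adjusted p of at most 0.01 and a log2 fold change beyond 0.5 in size were called. Adjusted p-values in the text are from edgeR unless another tool is named. The SE was recovered from the log2 fold change and its F statistic, and intervals are 95%. For other single values all 924 assignments of libraries to groups were enumerated (exact permutation, two-sided, smallest possible p 0.00216). The scripts were tested on simulated data. Copies were found with blastn (BLAST 2.17.0) at 95% identity over 200 bases. Libraries of 1 group differed by more than sampling noise in all 30 pairs (chi-square per degree of freedom at least 11.1). Total counts of 17815568 to 24814263 set the precision, and the SDs between libraries include counting error.

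The 10 genes and the lists around them were chosen with earlier results of these data known. All 10 are named, with every gene of the rest of methionine salvage and of the other polyamine genes, every called gene of the other pathway lists (marker lists are given by counts and sums), Amd2 and the pseudogenes named after a member that hold a count. As an exception, 1 called transport gene is counted in its list but not reported here. Gm19680, Gm49077, Echs1, Arg1, Arg2, Dhps, Atp13a2 and the markers Alb, Col1a1, Spp1, Dcn, Nkg7 and Ptprc were named after their values or overlaps were seen. Alternatives were RLE and upper quartile scaling, TMM without the 50 genes with most counts, 2 other filters, DESeq2 1.42.0, limma-voom (limma 3.58.1), a replicate block, dispersions without robust estimation, leaving out each library, and other thresholds. Sums with copies, another transcript length and the same fits for the lists were added after seeing the data.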

Additional observations from a re-analysis of the deposited data

Results flagged for a closer look

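Within groups of 6, single libraries were tested for standing apart from the rest by Dixon's gap to range ratio, over 38 groups of values, of which chance flags about 1 in 20, or 1.9 here. In 1 group a library stood apart. The ratio of Mtap to Srm was highest in fibrotic replicate 4, whose gap to the next library was 0.698 of the range of the group, above Dixon's limit for groups of 6. This library had the lowest Srm level and the highest Mtap level of the fibrotic group, 19.4 and 48.9 CPM. The number of groups over the limit was below the number chance gives.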

How the results depend on the processing

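The 5 calls among the 10 genes and their split of 3 higher and 2 lower were the same under each scaling, filter and fit tried and with any 1 of 12 libraries left out, except that DESeq2, the replicate block and the fit without fibrotic replicate 2 added Paox as a 6th. No fit scaled libraries to an equal sum alone. In the length-scaled levels, which did, the 5 called genes lay apart in the same directions. Oaz1 differed less there (mean 200.2 in the fibrotic and 261.5 in the FLO group), as did Azin1 (23.55 and 36.03). The ranges of Azin1 lay close, at 15.97 to 30.08 against 30.65 to 42.58. No call was made on these levels, so whether Oaz1 or Azin1 would pass the fold limit there was not tested. Srm did not overlap there (35.04 to 40.25 against 23.58 to 31.07). The mean of Sms was higher in the fibrotic group (3.01 against 2.82), opposite in sign to its log2 fold change. Over 225 pairs of gene and alternative, 219 kept their side of the threshold, 6 moved past it, 0 lost a call and 0 changed sign. These pairs include the exact permutation test given below, which was judged at 0.05 with no fold limit. Of the 6, 3 were the added calls of Paox, and the rest came from that looser permutation rule. The thresholds mattered more. At an adjusted p of 0.05 with no fold limit 8 genes were called, 5 of them higher, and beyond a log2 fold change of 1 in size the count was 0 in all, 0 higher and 0 lower in edgeR (8 had an unadjusted p under 0.05), 0 in DESeq2 and 1 in limma-voom. That 0 hung on Amd1 and Mtap at the limit, since Amd1 was at 1.06 without FLO replicate 1, 1.05 without FLO replicate 2, 1.01 with a replicate block and 1.002 to 1.025 with at least 10 counts in every library or without fibrotic replicate 3, 5 or 6, and Mtap at 1.03 without FLO replicate 1. Judged by an exact permutation test of mean log2 CPM at 0.05, Srm (difference 0.25, p = 0.0173), Sat1 (0.55, p = 0.0368) and Paox (-0.76, p = 0.026) also passed.

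With a replicate block 6 of the 10 genes were called, 3 higher and 3 lower, among 3780 genes called in all. Same-numbered libraries did not deviate together over all tested genes (correlations of -0.162 to 0.104, 1 of 6 over 0.1, and 0 best with their own number). The labels do not say what the number marks, and a shared effect that is small or limited to some genes could be missed by these correlations. The blocked log2 fold changes were 0.66 for Odc1, 1.01 for Amd1, 0.97 for Mtap, -0.84 for Azin1, -0.59 for Oaz1 and -0.76 for Paox (adjusted p = 0.00833). Of 21 called genes in the surrounding lists, 13 were called in every fit that tested them (Aoc1 did not pass the filter of 10 counts in every library) and 0 changed sign, and the count ran from 16 to 20 with 1 library left out.

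Sms, Smox, Paox and Srm had few counts (72 to 138, 102 to 239, 181 to 983 and 349 to 530 per library), which limits the precision of their values. RNA levels give neither enzyme activity nor polyamine content, and bulk tissue cannot place a difference in a cell type.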
